A study of Mus musculus with 4 samples.

Results

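Foxp3 and 8 further genes that regulatory T cells are known to express were examined in lung Th2 cells: Ikzf2, Ikzf4, Lrrc32, Itgb8, Izumo1r, Gpr83, Capg and Swap70. They were picked by gene symbol from the authors' deposited table, which lists 11883 genes, and all 9 were listed. The cells came from C57BL/6 mice under chronic exposure to papain, a protease allergen from papaya, and were sorted from the lung by viability, CD4 and T1/ST2, the interleukin-33 receptor that Il1rl1 encodes. One genotype, called control here, was Gata3(fl/fl), with a floxed Gata3 that Cre recombinase can delete. The other, called Klrg1Cre here, was Klrg1Cre Gata3(fl/fl), which has the same floxed Gata3 and a Cre named for Klrg1. There were 2 samples per genotype, and the labels do not say whether they came from separate or pooled mice, so the authors' p-values measure no more than how these samples vary, and that variation may be technical. The table gives group means under the headings WT and ILC2 deficient (ILC2 are group 2 innate lymphoid cells). WT was read as control because that genotype lacks Cre; the labels do not state this link. Floxed Gata3 is shared by all 4 samples and none carried Klrg1Cre alone, so loss of Gata3 in the sorted cells, lack of ILC2 and the Cre allele itself cannot be told apart.

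Regulatory T cells are CD4 T cells that restrain immune responses, and their identity depends on the transcription factor Foxp3. The other genes encode 2 partner zinc finger factors (Ikzf2 for Helios, Ikzf4 for Eos), surface proteins that hold or activate latent TGF-beta (Lrrc32, Itgb8), the surface proteins Izumo1r and Gpr83, and the cytoskeletal proteins Capg and Swap70. Some regulatory T cells of lung and other barrier tissues carry ST2, so a gate on CD4 and ST2 does not leave them out. In bulk RNA, fewer cells of a type and less RNA per cell cannot be told apart.

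Values are in CPM, read counts scaled to a common library total. The totals of the 4 libraries, worked out from the spacing of the authors' means, were 26019065 and 14564426 reads in Klrg1Cre and 33379572 and 31961572 in control. Which library is which numbered sample is not known, so each is named by its size within its genotype, larger or smaller. Reads per library could be worked out for 5351 genes (45.0%), among them Ikzf2, Lrrc32, Itgb8 and Swap70. For the other 5 genes the authors' group means are given. Rn45s, the ribosomal RNA precursor, held 67.1% of Klrg1Cre and 51.4% of control reads, while the other listed genes together held 18.2% and 17.8%. The remaining reads, of no listed gene, were 14.7% of Klrg1Cre and 30.8% of control totals. Scaling to the listed genes other than Rn45s in place of the totals shifts every log2 ratio by 0.03. T cell markers fitted the sort in both genotypes, with Cd3e between 72.1 and 78.5 CPM over the 4 libraries and Cd4 at deposited means of 167.6 CPM in Klrg1Cre and, in control, 150.1 CPM.

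Of the 9 genes, 8 had the lower of their deposited means in Klrg1Cre, as 49.4% of all listed genes did. At an unadjusted p below 0.05, 7 of the 9 were lower in the deposited table, against 3.37% of all listed genes (7.09% in either direction). The same 7 were lower at an unadjusted p below 0.01, which held for 1.01% of listed genes. These 7 were Foxp3, Ikzf2, Ikzf4, Lrrc32, Itgb8, Izumo1r and Gpr83, and their means were between 1.92-fold and 4.69-fold lower. None of the 9 passed an adjusted p of 0.05 over all genes, which 0.0589% of listed genes did in either direction and 0.0337% as lower; their smallest adjusted p in the deposited table was 0.131. Capg and Swap70 did not pass the unadjusted threshold. Because the genes were chosen with earlier results of these data known, the count is a description of this set.

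**Figure D1:**
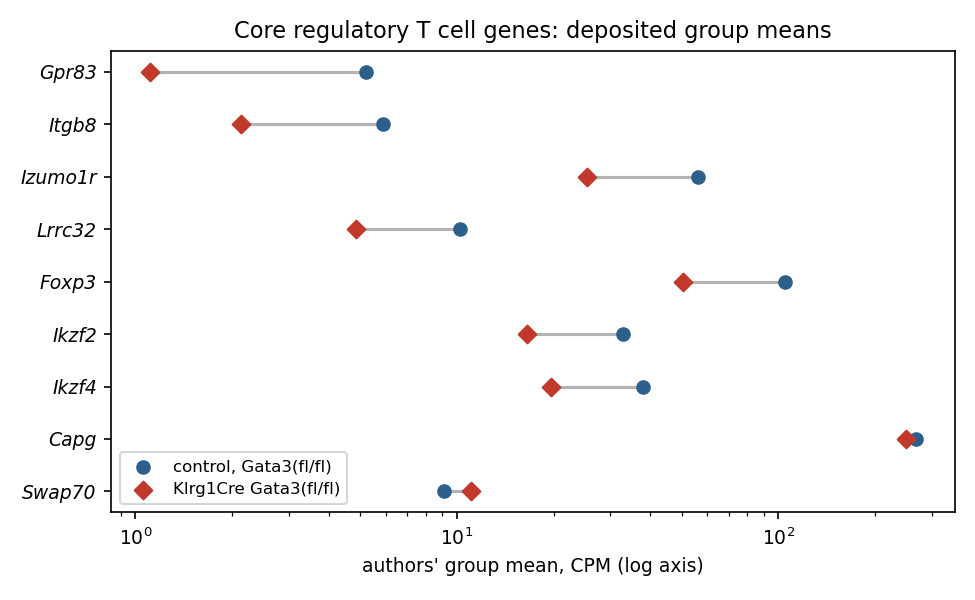
Authors' group means in CPM (log axis) for the 9 genes in control (circles) and Klrg1Cre (diamonds), 1 row per gene, ordered by the ratio. The 7 upper genes lie 1.92-fold to 4.69-fold lower in Klrg1Cre, while the points for Capg and Swap70 lie close together; the table of means has no error bars to draw.

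Foxp3 had deposited means of 50.6 CPM in Klrg1Cre and, in control, 104.6 CPM. Klrg1Cre thus stood at 48.4% of control, 2.07-fold lower, with an unadjusted p of 0.00239 and an adjusted p of 0.321 in the authors' deposited table. Its p ranked 86th among the 11883 genes. Of 483 listed genes with a control mean within 2-fold of that of Foxp3, 5 including Foxp3 itself had a log2 ratio as low or lower. The 5 genes nearest to Foxp3 in log2 ratio among the other 482 were Trerf1, Ifi27l2a, Izumo1r, Zfp36l1 and Arg1, over the 2 group means. Among these, Trerf1 and Ifi27l2a passed adjustment over all genes in the deposited table (adjusted p = 0.0316 and 0.0164).

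Other transcripts share sequence with the Foxp3 gene, which bears on its count because the sources used here do not say whether strand was used. In the GENCODE M21 annotation, exons of Foxp3 share bases with those of Flicr on the same strand. On the opposite strand they share bases with exons of Ppp1r3f, Ccdc22 and Gm36995, the last of which was not listed. Flicr, a noncoding RNA of regulatory T cells transcribed from the Foxp3 gene, had deposited means of 4.43 CPM in Klrg1Cre and, in control, 10.3 CPM (2.33-fold lower, unadjusted p = 0.000881, adjusted p = 0.230). Ppp1r3f, encoding a subunit of protein phosphatase 1, had deposited means of 1.63 and 3.53 CPM (unadjusted p = 0.0260, adjusted p = 0.625). For Ccdc22, which encodes a protein of endosomal sorting, they were 6.56 and 6.86 CPM (unadjusted p = 0.831). Reads of Foxp3 and of these 3 listed genes may not be fully separate. Of the 3, 2 (Flicr and Ppp1r3f) were lower at an unadjusted p below 0.05 as Foxp3 was, beside 3.37% of all listed genes. The 3 genes were looked at for their position, after the values of Foxp3 were known.

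RefSeq promoter entries (build GRCm38.p6) matched 6 of the 9 genes: Foxp3 with a pair of start sites, Izumo1r, Gpr83, Itgb8, Capg and Swap70. The 250 bases before each start were searched on both strands for TGTTTAC (forkhead factors such as Foxp3), AGATAA (letters known for GATA factors such as Gata3, the floxed gene), TGTGGT (RUNX factors, partners of Foxp3), TTCNNNGAA (STAT factors) and GGAAAA (NFAT factors). The downstream start site of Foxp3 and the start site of Swap70 are shown because they hold a match and none of their own gene's exons; Foxp3 had a lower mean and Swap70 did not. The Foxp3 window, at chrX:7580233-7580482 on the plus strand, holds the NFAT letters on the reverse strand, overlapping the STAT letters, and the GATA letters 47 bases before the start. Exons of Flicr also lie in it. The Swap70 window, at chr7:110221453-110221702 on the plus strand, holds the forkhead letters 107 bases before the start and the RUNX letters on the reverse strand. Capitals mark the matches.
Foxp3: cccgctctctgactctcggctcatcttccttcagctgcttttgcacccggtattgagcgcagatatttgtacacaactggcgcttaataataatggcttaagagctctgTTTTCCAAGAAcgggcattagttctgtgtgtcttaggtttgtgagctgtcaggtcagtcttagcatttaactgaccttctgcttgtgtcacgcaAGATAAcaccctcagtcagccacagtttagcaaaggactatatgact
Swap70: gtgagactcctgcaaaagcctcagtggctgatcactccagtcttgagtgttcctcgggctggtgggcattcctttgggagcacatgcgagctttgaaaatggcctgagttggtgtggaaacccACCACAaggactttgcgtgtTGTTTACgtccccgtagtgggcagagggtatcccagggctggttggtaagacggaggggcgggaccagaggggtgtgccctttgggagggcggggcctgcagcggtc
Of 32851 such windows over all RefSeq genes, 3.17% held the forkhead letters, 9.99% the GATA letters, 14.0% the RUNX letters, 7.02% the STAT letters and 20.4% the NFAT letters. The Izumo1r window held the RUNX letters, and the windows of Gpr83, Itgb8, Capg and the upstream Foxp3 start held none of the 5. A match is a run of letters and does not show that a factor binds there.

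Helios and Eos, the Ikaros family factors encoded by Ikzf2 and Ikzf4, are expressed by most regulatory T cells and act with Foxp3. Ikzf2 was present at 10.8 CPM in the larger and 22.2 CPM in the smaller Klrg1Cre library, against 26.5 and 39.2 CPM in the larger and smaller control library. Both Klrg1Cre libraries lay below both control libraries, but the highest Klrg1Cre and the lowest control value were close. Its deposited means were 2.00-fold lower in Klrg1Cre (unadjusted p = 0.00772, adjusted p = 0.494). Ikzf4 had deposited means of 19.7 CPM in Klrg1Cre and, in control, 37.8 CPM, 1.92-fold lower (unadjusted p = 0.00394, adjusted p = 0.391). The other 3 members of the family did not pass the unadjusted threshold in the deposited table. Ikzf1, encoding Ikaros, had means of 50.9 CPM in Klrg1Cre and, in control, 45.2 CPM, Ikzf3, encoding Aiolos, 83.0 and 100.2 CPM, and Ikzf5, encoding Pegasus, 4.80 and 3.57 CPM.

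Lrrc32 encodes GARP, which tethers latent TGF-beta to the surface of regulatory T cells. It was present at 3.46 and 6.25 CPM in the larger and smaller Klrg1Cre library and at 8.54 and 11.9 CPM in the larger and smaller control library. Both Klrg1Cre values lay below both control values, but the 95% Poisson intervals of the nearest libraries, which cover counting error only, overlapped. They ran from 5.03 to 7.67 CPM in the smaller Klrg1Cre library and from 7.58 to 9.59 CPM in the larger control library. Its deposited means were 2.10-fold lower in Klrg1Cre (unadjusted p = 0.00585, adjusted p = 0.448). Itgb8 encodes the beta chain of integrin alpha-v beta-8, which releases active TGF-beta from its latent complex. Its values were 1.65 and 2.61 CPM in the larger and smaller Klrg1Cre library, from 43 and 38 reads, and 5.60 and 6.16 CPM in the control libraries, from 187 and 197 reads. Here too both Klrg1Cre libraries were lower. The Poisson intervals of the control libraries overlapped each other. Those of the nearest libraries of the genotypes did not, though they cover counting error only. They ended at 3.58 CPM in the smaller Klrg1Cre library and began at 4.83 CPM in the larger control library. The deposited means of Itgb8 were 2.76-fold lower in Klrg1Cre (unadjusted p = 0.00116, adjusted p = 0.265).

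**Figure D2:**
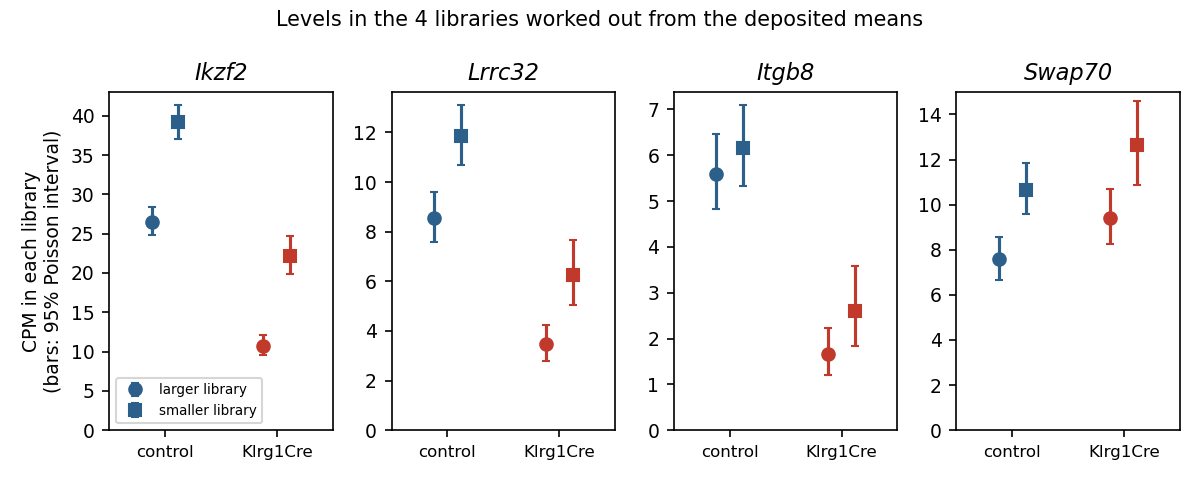
CPM of Ikzf2, Lrrc32, Itgb8 and Swap70 in each of the 4 libraries, with 95% Poisson intervals that cover counting error only; circles are the larger and squares the smaller library of each genotype. For Ikzf2, Lrrc32 and Itgb8 both Klrg1Cre libraries lie below both control libraries, for Swap70 the genotypes overlap, and in all 4 genes the smaller library of each genotype is the higher one.

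Klrg1Cre lay wholly below control in 18.3% of all 5351 genes with worked-out libraries, and wholly above it in 19.3%. Of the 4 genes in the set with such values, 3 lay wholly below and 0 wholly above. In limma, fitted to log2(CPM + 1) of the 4242 worked-out genes averaging 1 CPM or more, the difference of Klrg1Cre from control was -1.01 for Ikzf2 (95% interval -1.67 to -0.36, adjusted p = 0.357). It was -0.96 for Lrrc32 (-1.56 to -0.36, adjusted p = 0.313) and -1.15 for Itgb8 (-1.69 to -0.61, adjusted p = 0.166). These intervals lie below 0, and no adjusted p passed 0.05 with all 4 libraries. The smaller Klrg1Cre library was the nearer one to control for these genes. With it left out, the limma difference was -1.50 for Ikzf2, -1.31 for Lrrc32 and -1.37 for Itgb8. With the larger Klrg1Cre library left out instead, these were -0.52, -0.61 and -0.93. Without the smaller control library, the differences were -0.74 for Ikzf2, -0.75 for Lrrc32 and -1.09 for Itgb8. Without the larger control library, they were -1.28, -1.18 and -1.21. Each such fit leaves 1 library in a genotype, with no spread of its own, so no p-value or interval is given.

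Genes of latent TGF-beta handling differed in both directions. Of 17 listed in the deposited table, 4 were lower and 3 higher at an unadjusted p below 0.05, which held for 3.37% and 3.72% of all genes, and their median log2 ratio was 0.05 against 0.01 for all listed genes. Besides Lrrc32 and Itgb8, the lower ones were the receptor gene Tgfbr1 (7.18 CPM in Klrg1Cre and, in control, 15.5 CPM) and Skil, a repressor of Smad signalling (34.0 and 43.9 CPM). The higher ones in the deposited table were Itgb1, encoding integrin beta-1 (56.8 CPM in Klrg1Cre, 2.58-fold higher), Itgb3, encoding integrin beta-3 (66.6 and 51.3 CPM), and the ligand gene Tgfb3 (2.33 and 1.07 CPM). Itgav, whose product pairs with that of Itgb8, had deposited means of 6.51 CPM in Klrg1Cre and, in control, 7.41 CPM, and Tgfb1, the ligand that GARP binds, 4.84 and 5.48 CPM, with unadjusted p of 0.438 and 0.514. None of these passed adjustment over all genes.

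Izumo1r encodes a protein of the folate receptor family, also called folate receptor 4 or Juno, that marks regulatory T cells and is the egg receptor for sperm. Its deposited means were 25.3 CPM in Klrg1Cre and, in control, 56.2 CPM, 2.22-fold lower (unadjusted p = 0.000418, adjusted p = 0.165). Gpr83, encoding a G protein-coupled receptor abundant in regulatory T cells, had deposited means of 1.11 and 5.20 CPM, 4.69-fold lower (unadjusted p = 0.000276, adjusted p = 0.131). By p in the deposited table, Gpr83 ranked 25th and Izumo1r 30th of 11883 genes, ahead of Itgb8 at 52nd. The size of the Gpr83 ratio depends on the pseudocount: with 1 CPM added to both means its log2 ratio was -1.56 instead of -2.23.

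Gpr83 and Izumo1r are adjacent protein-coding genes on the RefSeq map of GRCm38.p6, with Mre11a on one side and Panx1 on the other. Mre11a, encoding a DNA repair nuclease, had deposited means of 3.28 CPM in Klrg1Cre and, in control, 3.76 CPM, and Panx1, encoding a channel protein, 11.0 and 12.3 CPM (unadjusted p = 0.510 and 0.424). Neither gene beside the pair passed the unadjusted threshold. The 9 genes have 16 flanking protein-coding genes outside the set. Of these, 10 were listed and 1, Ppp1r3f next to Foxp3, had an unadjusted p below 0.05. Over all listed genes, 7.09% had such a p in either direction.

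**Figure D3:**
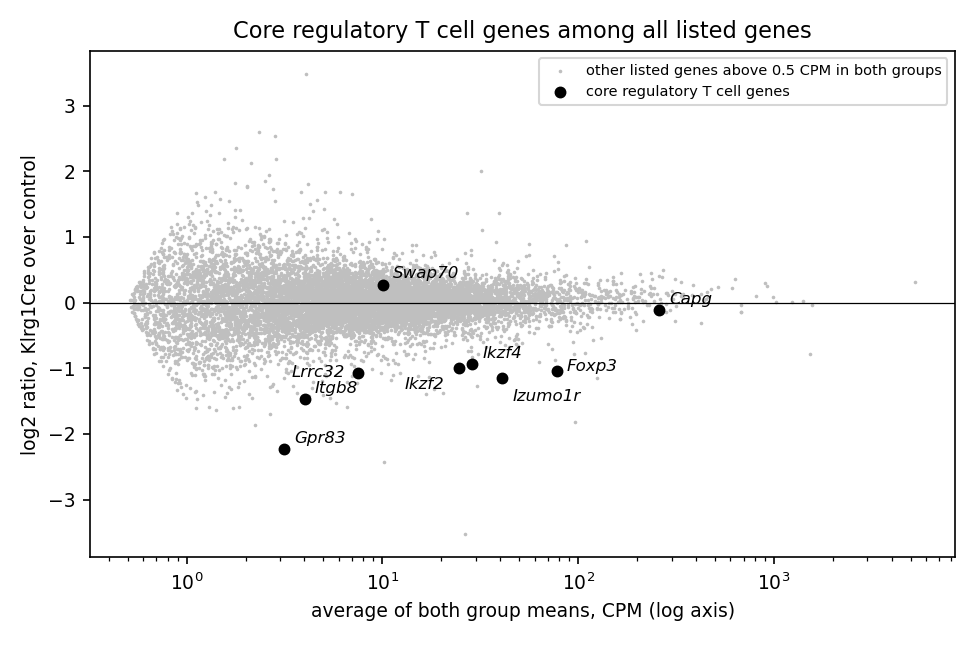
Log2 ratio of the authors' means, Klrg1Cre over control, against the average of both means in CPM (log axis) for listed genes above 0.5 CPM in both groups, without Rn45s; the 9 genes are black and named. Foxp3, Izumo1r, Ikzf2 and Ikzf4 lie between -0.94 and -1.15, Gpr83 lies lowest at -2.23, and Capg (-0.11) and Swap70 (0.27) lie among most other genes.

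Means at least 2-fold lower in Klrg1Cre were found for 5 of the 9 genes in the authors' deposited table, Foxp3, Lrrc32, Izumo1r, Itgb8 and Gpr83, and for 4.29% of all listed genes. Most genes past that fold were low: of 6300 genes averaging 5 CPM or more, 27 (0.429%) were past it, among them Foxp3, Lrrc32 and Izumo1r.

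Capg and Swap70 encode proteins with wider roles than regulatory T cells. Capg caps the ends of actin filaments and is abundant in macrophages, and Swap70 binds actin and Rac and was described in B cells. Capg had deposited means of 248.9 CPM in Klrg1Cre and, in control, 268.6 CPM, which is 92.7% of control (unadjusted p = 0.435). Swap70 was present at 9.42 and 12.6 CPM in the larger and smaller Klrg1Cre library and at 7.58 and 10.7 CPM in the larger and smaller control library. These genotypes overlapped, and its difference in limma was 0.25 on the log2(CPM + 1) scale, with a 95% interval from -0.24 to 0.74 (adjusted p = 0.845). Both lower and higher levels of Swap70 in Klrg1Cre lie within that interval. For Capg no interval could be computed from group means alone.

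Of 14 genes for actin capping and Rac exchange, a list that holds Capg and Swap70, 13 were listed and 0 passed the unadjusted threshold in the deposited table. The 2 most abundant, Arpc1b and Rac2, had means of 358.4 and 354.7 CPM in Klrg1Cre and, in control, 327.4 and 336.1 CPM. Markers of the other cells known for these genes were present to different degrees. All 14 macrophage and monocyte markers were listed, 6 lower and 8 higher. They summed to 2070 CPM in Klrg1Cre and, in control, 2760 CPM. Chil3, the most abundant, was at 1124 and 1932 CPM in the deposited table (unadjusted p = 0.0165). Its difference was larger than that of the sums, so the other markers together were higher in Klrg1Cre. Marco was at 0 CPM in both control libraries. Of 6 B cell markers 4 were listed, summing to 1.72 CPM in Klrg1Cre and, in control, 3.18 CPM. Ms4a1 was at 0 CPM in both Klrg1Cre libraries. Of 7 dendritic cell markers 4 were listed, at 57.7 and 45.6 CPM in sum, of which H2-Ab1 made up 50.7 and 38.9 CPM. The part of these cells in the values of Capg, Swap70 and Itgb8 was not tested. Of the other cells looked for, 7 of 9 ILC2 markers were listed, with sums of 219.5 CPM in Klrg1Cre and, in control, 328.3 CPM (5 lower and 2 higher), 5 of 7 epithelial and stromal markers with 27.4 and 20.8 CPM, 1 of 6 eosinophil, basophil and mast cell markers (Ccr3, 2.89 and 5.58 CPM), 1 of 2 CD8 T cell markers (Cd8b1, 3.07 and 2.93 CPM) and 0 of 4 NK cell markers. Among the ILC2 markers, Klrg1 (4.19 and 48.4 CPM) and Arg1 (53.9 and 98.5 CPM) were lower and Nmur1 (7.73 and 2.40 CPM) was higher in Klrg1Cre at an unadjusted p below 0.05 in the deposited table, and Areg had deposited means of 3.83 and 2.25 CPM (unadjusted p = 0.120). Il1rl1, which encodes the sorted receptor, had deposited means of 59.1 CPM in Klrg1Cre and, in control, 68.0 CPM (unadjusted p = 0.173).

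Further genes of regulatory T cells were read from a second list of 34, of which 33 were listed. Like the other gene lists here, it was chosen with earlier results of these data known, so its counts are a description only. Lower means in Klrg1Cre were found for 25 of the 33 in the authors' deposited table, 11 were lower and 0 higher at an unadjusted p below 0.05, and 1 (Itgae) passed adjustment over all genes. Over all listed genes, 49.4% had a lower mean in Klrg1Cre. At that unadjusted p, 3.37% were lower and 3.72% higher, and 0.0589% passed adjustment. The list had a median log2 ratio of -0.33. Receptors of the TNF family that regulatory T cells carry were among the 11: Tnfrsf9, encoding 4-1BB, with means of 11.4 CPM in Klrg1Cre and, in control, 29.3 CPM, Tnfrsf4, encoding OX40, with 70.6 and 121.0 CPM, and Tnfrsf18, encoding GITR, with 106.7 and 155.3 CPM. So were Il2ra, the interleukin-2 receptor alpha chain, at deposited means of 19.5 and 27.6 CPM, and the costimulatory receptor gene Icos at 80.8 and 136.9 CPM. Genes of tissue-adapted cells in the same group were Klrg1 (4.19 CPM in Klrg1Cre and, in control, 48.4 CPM), Itgae (42.8 and 150.9 CPM), Penk (10.6 and 26.3 CPM) and the transcription factor gene Prdm1 (21.6 and 31.1 CPM). Arl5a, a small GTPase gene, and Ecm1, an extracellular matrix gene, completed the 11, at deposited means of 9.59 and 27.9 CPM in Klrg1Cre and, in control, 20.8 and 40.8 CPM. Klrg1 is also the gene that gives the Cre allele its name. Which of the sorted cells carry the RNA of these 11 genes cannot be told from bulk RNA.

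Genes on this list outside the 11 had means in both directions, 8 of them higher in Klrg1Cre. Ctla4, an inhibitory receptor, had deposited means of 62.4 CPM in Klrg1Cre and, in control, 79.7 CPM, and Tigit, another, 44.8 and 57.4 CPM, with unadjusted p of 0.135 and 0.0881. Il10, encoding an anti-inflammatory cytokine, had deposited means of 9.30 and 7.92 CPM, and Nrp1, a surface receptor of thymus-derived regulatory T cells, 55.6 and 49.0 CPM, with unadjusted p of 0.328 and 0.384. Of the 20 genes on this list with worked-out libraries, Klrg1Cre lay wholly below control in 8 and wholly above it in 1, Rgs1, a regulator of G protein signalling, against 18.3% and 19.3% of all worked-out genes.

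**Figure D4:**
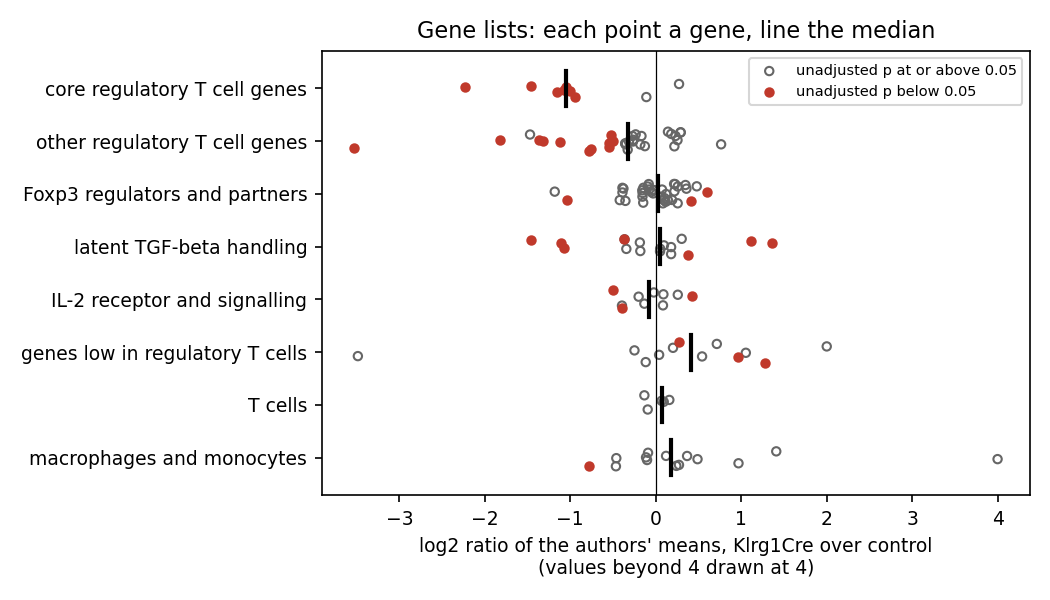
Log2 ratio of the authors' means, Klrg1Cre over control, for every listed gene of 8 lists, with filled points at an unadjusted p below 0.05 and a bar at each list's median. The median is -1.05 for the 9 core genes and -0.33 for other regulatory T cell genes. It is 0.02 for regulators and partners of Foxp3 and 0.41 for genes low in regulatory T cells. The point drawn at 4 is Marco, at 0 CPM in both control libraries.

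Genes whose products regulate Foxp3 or act with it were close to the rest of the table. All 38 were listed in the deposited table, 19 with lower and 19 with higher means, and 1 was lower and 2 higher at an unadjusted p below 0.05, again beside 3.37% and 3.72% of all listed genes. Nr4a3, an orphan nuclear receptor gene induced by T cell receptor signalling, was the lower one (2.24 CPM in Klrg1Cre and, in control, 4.60 CPM). Foxp1, a forkhead gene related to Foxp3, had deposited means of 32.2 and 21.2 CPM and the floxed gene Gata3 293.9 and 221.4 CPM. A gene-level mean can include exons outside a floxed segment, so it does not check the deletion. Runx1 and Cbfb, which encode both chains of a factor that binds Foxp3, had deposited means of 29.7 and 7.40 CPM in Klrg1Cre and, in control, 32.9 and 6.19 CPM, with unadjusted p of 0.405 and 0.324.

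Of 10 genes of the interleukin-2 receptor and its signalling, on which regulatory T cells depend, 2 were lower and 1 higher at an unadjusted p below 0.05 in the deposited table, which held for 3.37% and 3.72% of all listed genes. The lower ones were Il2ra, given above, and the beta chain gene Il2rb (93.2 CPM in Klrg1Cre and, in control, 122.1 CPM), and the higher one was Cish, a STAT5-induced inhibitor of cytokine signalling (99.3 and 73.8 CPM). Genes known to be low in regulatory T cells relative to other CD4 T cells had higher means in 9 of 12 listed and lower in 3. Lower means were found for 49.4% of all listed genes. At an unadjusted p below 0.05 in the deposited table, 3 of the 12 were higher and 0 lower, beside 3.72% and 3.37% of all listed genes. The 3 were the cytokine genes Il13 (12.4 and 6.33 CPM) and Il5 (12.4 and 5.08 CPM) and the T cell receptor kinase gene Zap70 (172.0 and 142.0 CPM). Il4, another cytokine gene of the list, had deposited means of 2.60 and 2.26 CPM (unadjusted p = 0.630). None of these genes passed adjustment over all genes.

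The worked-out genes of the set also differed between libraries of the same genotype. Ikzf2 was 2.06-fold higher in the smaller than in the larger Klrg1Cre library and 1.48-fold higher in the smaller than in the larger control library. For Lrrc32 these ratios were 1.81 and 1.39, for Itgb8 1.58 and 1.10, and for Swap70 1.34 and 1.41. All 4 genes were thus higher in the smaller library of both genotypes, which held for 10 of 20 worked-out genes of the second regulatory T cell list and for 1059 of the 4242 worked-out genes averaging 1 CPM or more. Over worked-out genes averaging 5 CPM or more, the median log2 ratio of the smaller to the larger library was 0.01 in Klrg1Cre and -0.01 in control. The 3 CD3 chain genes of the T cell receptor complex did not share 1 pattern. Cd3d was at 104.9 and 114.9 CPM in the larger and smaller Klrg1Cre library and at 113.5 and 127.5 CPM in the larger and smaller control library, so it too was higher in the smaller library of both genotypes. Cd3e was also higher there, by less, at 74.8 and 78.5 CPM in Klrg1Cre libraries and 72.1 and 73.9 CPM in control libraries. Cd3g was at 130.5 and 117.1 CPM in the larger and smaller Klrg1Cre library and at 114.9 and 117.1 CPM in control.

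Ikzf2 could be compared over the 4 libraries with 2687 other worked-out genes averaging 5 CPM or more. Of the set, only Lrrc32 and Swap70 were among these, since Itgb8 averaged less and the other genes were not worked out. The measure was the distance between log2(CPM + 1) values after subtraction of each gene's mean. It was chosen after the values of Ikzf2 were seen. The nearest of these genes was Lrrc32, at a distance of 0.22. Next came Gimap7, a lymphocyte GTPase gene (0.24), Tnfrsf4 (0.29), the RNA-binding protein gene Zfp36l1 (0.32) and Pglyrp1, encoding a peptidoglycan recognition protein (0.36). Tnfrsf4 was at 49.2 and 92.0 CPM in the larger and smaller Klrg1Cre library and at 88.6 and 153.5 CPM in the larger and smaller control library. Its genotypes overlapped, since the smaller Klrg1Cre library stood above the larger control library. With 4 libraries in all, genotype and library differences both enter this likeness.

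**Figure D5:**
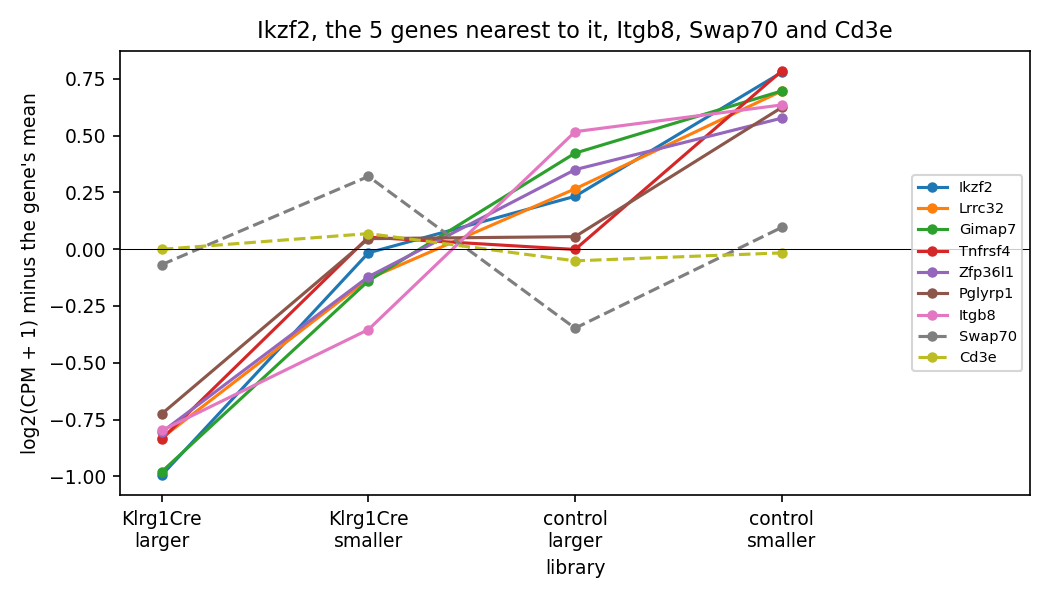
Log2(CPM + 1) minus the gene's mean over the 4 libraries, for Ikzf2, the 5 genes nearest to it, Itgb8, and, dashed, Swap70 and Cd3e; lines only join the points of a gene. Ikzf2 and its 5 nearest genes are lowest in the larger Klrg1Cre library and highest in the smaller control library, while Cd3e is nearly level and Swap70 is highest in the smaller Klrg1Cre library.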

How the data were processed

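STAR, Partek and the mouse build mm9 are named, with no order, per the submitters' processing notes; versions and the statistical model are not given in the sources used here. The authors deposited 1 table with group means in CPM, a ratio and a fold-change score per gene, and p-values with their Benjamini-Hochberg adjustment. The deposited signal column for total counts is 2 times the summed means in each of 11883 rows, so it holds no depth. An offset of 0.0001 CPM is in every deposited mean.

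Library totals and reads were worked out as whole reads of 2 libraries that give the deposited mean within 1e-09 reads. Totals and the split were tested on simulated data, as was limma 3.58.1 (R 4.3.3, trended variance, log2(CPM + 1)). The authors' p-values are the main test and limma an alternative.

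The 9 genes and all lists were chosen with earlier results of these data known. All 9 genes are named; from other lists, genes at an unadjusted p below 0.05, or else the 2 most abundant, with others named for their role in the text. Promoters are from RefSeq GRCm38.p6, not mm9.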

Additional observations from a re-analysis of the deposited data

How the results depend on the processing

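Of the 9 genes, 7 were lower at an unadjusted p below 0.05 and 7 at 0.01, but 0 at an adjusted p below 0.05, whether adjusted over all genes or over genes averaging 1 or 5 CPM or more. Over all listed genes, 7 passed the adjusted threshold, 843 the unadjusted one, and 16 when adjusted over genes averaging 5 CPM or more. The median log2 ratio of the 9 genes, -1.05, was -0.74 with a pseudocount of 5 CPM. Rescaling to all listed genes except Rn45s shifted log2 ratios by 0.03. No gene of the 9 changed sign under these 4 scalings and pseudocounts. With limma on all 4 libraries, 3 of the 4 worked-out genes were lower at an unadjusted p below 0.05. The share of all fitted genes so called was not worked out, so that count cannot be weighed against it. Leaving out a library leaves 1 in its genotype, which is then assumed to vary like the other, so those fits are read by their effect sizes. Leaving out the smaller Klrg1Cre library put Ikzf2 at a log2 ratio of -1.61, and leaving out the larger one at -0.57. No paired analysis was possible because the worked-out libraries could not be tied to the numbered samples. Low levels limit Itgb8 and Gpr83 most.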

Other observations

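Zfp36l1, which encodes an RNA-binding protein that promotes decay of messenger RNA, was among the 5 genes nearest to Foxp3 by group means and among the 5 nearest to Ikzf2 over the 4 libraries. It was present at 33.6 and 54.5 CPM in the larger and smaller Klrg1Cre library and at 76.0 and 89.1 CPM in the larger and smaller control library. Klrg1Cre thus lay wholly below control, as in 18.3% of all worked-out genes. Choosing a gene for its likeness to Ikzf2 favours such a separation, so it is no separate finding. Its deposited means were 44.0 CPM in Klrg1Cre and 82.5 CPM in control (unadjusted p = 0.00151, adjusted p = 0.268). Among the 10 genes nearest to Ikzf2 were also Tnfrsf8, encoding CD30, at 5.57 and 7.96 CPM in Klrg1Cre against 9.44 and 12.2 CPM in control, and a second lymphocyte GTPase gene, Gimap6, at 32.0 and 43.8 CPM against 53.8 and 63.6 CPM. Trat1, also among these 10, overlapped between genotypes, at 1.73 and 6.25 CPM in Klrg1Cre against 5.99 and 6.29 CPM in control. These genes were named after their values were seen.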
